A study of Mus musculus with 2 samples.

Results

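MHC class I presentation was described through 10 genes chosen by name: the light chain B2m, the heavy chains H2-K1 and H2-D1, the peptide loading genes Tap1, Tap2 and Tapbp, the immunoproteasome subunits Psmb8, Psmb9 and Psmb10, and the regulator Nlrc5. Every array probe whose RefSeq accession belongs to a member was taken, which gave 12 probes for the 10 genes, out of 27220 probes for 20651 genes in all. The RNA came from mouse CD4 T cell cultures labelled Th9, the helper type that makes IL-9. Naive CD4+TCR+CD62Lhi CD44lo cells had been sorted from spleen and lymph node, cultured for 5 days with antibodies to CD3 and to CD28 (each at 2 µg/ml), with human IL-2 (100 U/ml), and with IL-4 (10 ng/ml) plus TGFβ1 (2 ng/ml). One genotype is labelled wild-type and the other SIRT1flox/flox-CD4-Cre, that is, floxed alleles of the deacetylase gene Sirt1 with a Cre recombinase under Cd4 control, called knockout here. Both groups had the same culture, and each had 1 array. The labels and protocols used here name no age, sex, strain or pooling of the mice and no floxed exon. Cd4-driven Cre acts in developing thymocytes, so it is not limited to cells that become Th9.

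A class I molecule is a heavy chain paired with beta-2 microglobulin, and it shows short peptides from the cell's own proteins to CD8 T cells and NK cells. Proteasomes cut the peptides, the TAP transporter moves them into the endoplasmic reticulum, and tapasin holds empty class I molecules at the transporter until a peptide fits. Interferon gamma raises most genes of this pathway, and in lymphocytes NLRC5 keeps class I transcription high. Nearly all nucleated cells carry class I, so a bulk RNA sample cannot say which cells its class I signal came from, and fewer cells of a type and less RNA per cell cannot be told apart.

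The stretches before the genes' starts are shown for the chains of the class I molecule, which share motifs, and for a pair of neighbours whose values differed. They are RefSeq sequence of build GRCm38.p6, whose promoter table held 8 of the 10 members and not Tap2 or Nlrc5. For the chains of the class I molecule itself, the 250 bases before the start are printed on the strand of the gene, at chr2:122147437-122147686 (plus strand) for B2m, chr17:34000348-34000597 (minus strand) for H2-K1 and chr17:35262844-35263093 (plus strand) for H2-D1. Capitals mark matches, on either strand, to an NF-kB motif, to AANNGAAA (the core that interferon regulatory factors bind), to TGACG (the core of a cyclic AMP response element) and to CCAAT.
B2m: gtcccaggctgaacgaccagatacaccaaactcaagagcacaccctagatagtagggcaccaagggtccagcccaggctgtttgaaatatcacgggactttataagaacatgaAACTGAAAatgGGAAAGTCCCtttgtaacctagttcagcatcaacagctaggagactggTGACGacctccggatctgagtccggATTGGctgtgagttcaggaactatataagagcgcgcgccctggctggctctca
H2-K1: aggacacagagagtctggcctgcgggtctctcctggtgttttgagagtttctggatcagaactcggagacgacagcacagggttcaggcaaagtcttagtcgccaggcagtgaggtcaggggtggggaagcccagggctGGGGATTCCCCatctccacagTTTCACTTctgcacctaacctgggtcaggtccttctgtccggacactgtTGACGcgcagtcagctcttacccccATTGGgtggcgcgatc
H2-D1: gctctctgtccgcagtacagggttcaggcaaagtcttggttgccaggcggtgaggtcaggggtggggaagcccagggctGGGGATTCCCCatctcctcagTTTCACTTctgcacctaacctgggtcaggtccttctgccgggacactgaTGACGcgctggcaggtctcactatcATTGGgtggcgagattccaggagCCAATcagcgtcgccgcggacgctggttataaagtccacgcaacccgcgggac
All 3 stretches held a match to each of the 4 motifs, and in each TGACG came before a CCAAT match on the other strand, which reads ATTGG. H2-D1 had a second CCAAT match, on the printed strand. H2-K1 and H2-D1 shared the NF-kB match GGGGATTCCCC, followed by TTTCACTT, and were 91.0% identical over 177 aligned positions. In B2m the order was turned, with AACTGAAA before GGAAAGTCCC. Among 32851 promoter stretches of the same length in the table, 3.90% held the NF-kB motif, 21.3% AANNGAAA, 17.8% TGACG and 33.8% CCAAT, and 22 stretches, 0.0670%, held all 4. A match is a description of the letters and does not show that a factor binds.

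Psmb9 and Tap1 lie head to head on chromosome 17 with 0 protein-coding genes between them, followed by Psmb8 and Tap2, again with 0 between neighbours. The 225 bases between the starts of Psmb9 and Tap1, at chr17:34187331-34187555, are printed on the plus strand, the strand of Tap1, because the genes on its sides lay on opposite sides of 0 below. Capitals mark matches to CCAAT and to TGACG. They also mark a GC box, GGGCGG, on the minus strand, a motif that 32.7% of all stretches held.
Psmb9-Tap1: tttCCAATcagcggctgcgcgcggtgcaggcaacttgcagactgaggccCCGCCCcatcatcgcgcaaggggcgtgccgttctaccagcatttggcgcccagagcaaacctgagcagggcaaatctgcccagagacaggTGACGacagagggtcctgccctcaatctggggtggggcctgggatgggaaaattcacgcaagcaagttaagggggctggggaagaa
The stretch had 1 match to each of these motifs, and neither the NF-kB motif nor AANNGAAA is among its letters. Of the members not printed, Tapbp had 2 matches to CCAAT and 1 to the GC box in its 250 bases. Psmb8 had a match to TTCNNNGAA, the form STAT proteins bind (7.02% of all stretches), and Psmb10 had none of the 6 motifs.

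The array values are processed signals, the brightness of a spot after the scanner software has taken off background, in arbitrary units. Differences are given as knockout minus wild-type on the log2 scale after each array was set to its own 75th percentile (signals of 544 and 520), and the ± is the scanner software's own error of the spot, which was 10.1% of the signal at the median spot above background of the wild-type array. That error covers a spot's measurement only. With 1 array per genotype there was no replicate check and no test between genotypes. Sirt1 itself gave 3240 (wild-type) and 2920, a difference of -0.08 ± 0.20. Where its probe lies relative to the floxed part is unknown here, which is why it checks no label, and "the array labelled knockout" is written for that sample. Il9, at 5.48 and 7.36, did not reach well above background on either. Of the gene spots, 57.1% (wild-type) and 65.3% were well above background.

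None of the 10 genes differed by 2-fold between the arrays. All 10 had a probe well above background on both arrays, as did 12958 of all 20651 genes. Of the members 0 of 10 passed 2-fold, where 7.59% of those 12958 genes did. At 1.5-fold the count was 1 of 10, Tap1, against 22.9% of all genes. Of the members 7 were higher on the array labelled knockout and 3 were lower, against 50.4% of all genes higher. The median difference of the members was 0.12, and that of all genes was 0.00. Only 4 of the 10 differed by more than their scanner error (Tap2, Tapbp, Psmb9 and Tap1), where 60.6% of all genes did.

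**Figure D1:**
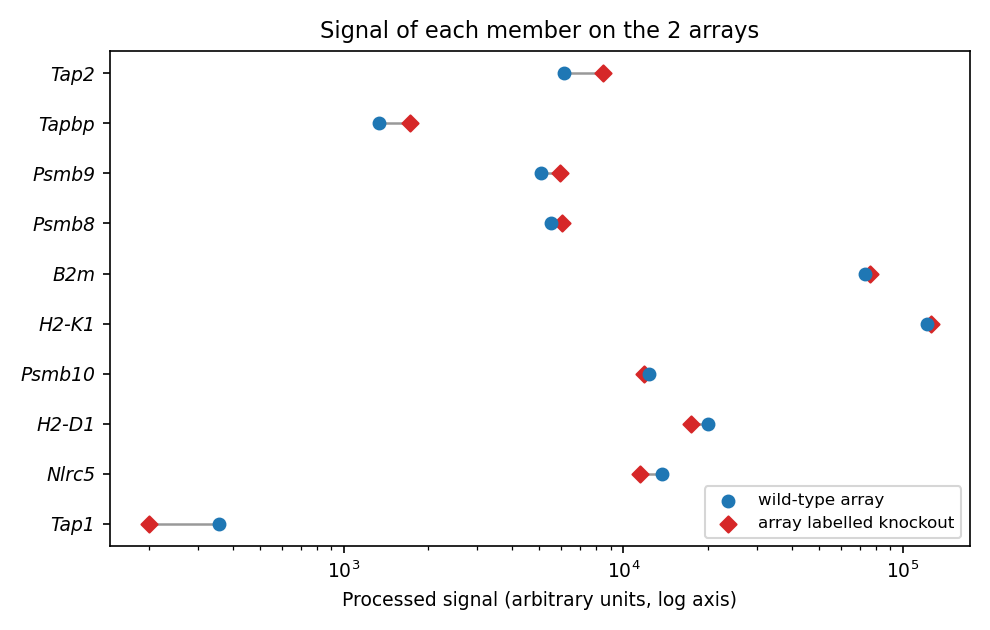
Processed signal (arbitrary units, log axis) of each member on the wild-type array (circles) and the array labelled knockout (diamonds), for the probe that stands for the gene and before scaling. The pairs of points lie close together except for Tap1, at 356 and 200; signals of different probes are not levels that can be set against each other.

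The chains of the class I molecule gave nearly the same signal on both arrays. B2m, the light chain shared by all classical class I molecules, gave 73000 for wild-type and 76000 for the labelled knockout, 0.12 ± 0.20 apart. H2-K1, a classical heavy chain, was measured by a probe spotted 10 times. Its spots ran from 115000 to 128000 with a median of 123000 for wild-type, and from 123000 to 130000 with a median of 125500 on the other array. The raw spots of H2-K1 therefore overlapped, and after scaling the lowest spot of the array labelled knockout, at 7.89, lay just above the highest of the wild-type array, at 7.88. Of the 248 probes with repeated spots well above background, 41.9% had all spots higher on the array labelled knockout in this way. The mean difference of H2-K1 was 0.11 ± 0.20, and its second probe (16800 and 15600) gave -0.04 ± 0.20.

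H2-D1, the other classical heavy chain measured, gave 20000 and 17400, a difference of -0.14 ± 0.20. The values of H2-K1 and H2-D1 were 0.24 ± 0.29 apart on the log2 scale, less than the error. Class I heavy chain genes resemble one another closely in sequence and the probe sequences are not in the files used here, so a signal named for a heavy chain may include RNA of its relatives.

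By the probes that stand for them, heavy chains outside the member set showed the same closeness with a pair of exceptions. Of 19 such class I and class I-like genes listed, 15 had a probe and 14 were measured on both arrays, 10 of them higher and 4 lower, with a median of 0.04. H2-M3 gave 11300 on each array and H2-T23, which encodes Qa-1, 18700 and 18400. The exceptions were 2 genes at least 2-fold higher on the array labelled knockout, where 3.95% of all genes were. Hfe, a class I-like protein that takes part in sensing iron, gave 577 and 1220, a difference of 1.15 ± 0.20. H2-Q10, a secreted class I molecule best known from liver, gave 732 and 2050 with its brighter probe, 1.55 ± 0.20 apart, while its other probe gave 665 and 509, a difference of -0.32 ± 0.20. The probes of H2-Q10 thus pointed in opposite directions. The other second probes of this list were less close than the brighter ones. They gave -0.79 ± 0.33 for H2-T24, -0.44 ± 0.20 for H2-Q2 and 0.31 ± 0.21 for Cd1d1.

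**Figure D2:**
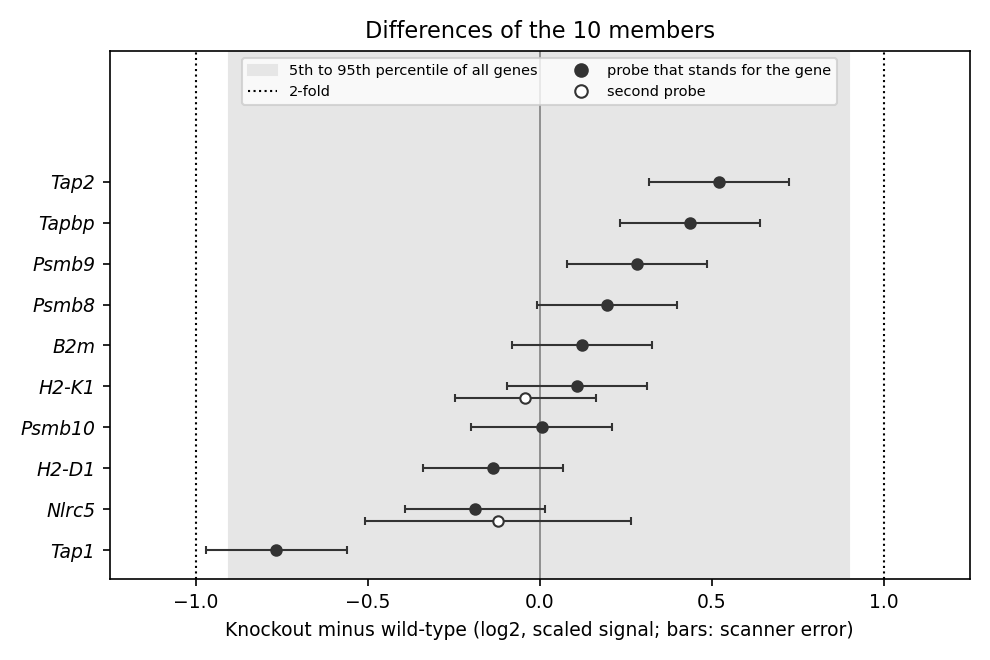
Knockout minus wild-type difference of each member on the log2 scale, with the scanner error as bars; filled points are the probes that stand for the genes and open points the second probes of H2-K1 and Nlrc5. The dotted lines mark 2-fold and the grey band runs from the 5th to the 95th percentile of all genes (-0.90 to 0.90), and all 10 members lie inside it.

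The peptide loading genes held both ends of the range. Tap2, a subunit of the TAP peptide pump, gave 6140 for wild-type and 8420 for the labelled knockout, a difference of 0.52 ± 0.20 (1.43-fold). Tapbp, which encodes tapasin, gave 1330 and 1720, a difference of 0.44 ± 0.20 (1.35-fold). These were the highest values among the members, and the pair did not differ from each other beyond the error. The 779 other genes with a signal within 0.5 (log2) of Tap2 had a 95th percentile of 0.53, close to the value of Tap2. For Tapbp that percentile was 0.70.

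Tap1, the partner of Tap2 in the pump, lay in the opposite direction. Its probe was spotted 10 times, from 341 to 386 with a median of 354.5 for wild-type, and from 188 to 208 with a median of 200.5 on the array labelled knockout. All spots of the array labelled knockout were below all spots of the wild-type array. The mean difference was -0.77 ± 0.21, or 1.70-fold lower, and the SD between spots was 0.06 and 0.04 on the log2 scale. Such separation was common among repeated probes: 27.4% of the 248 had all spots lower on the array labelled knockout. The spots share the RNA and the hybridisation, so they measure the precision of the array and not the spread between cultures.

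**Figure D3:**
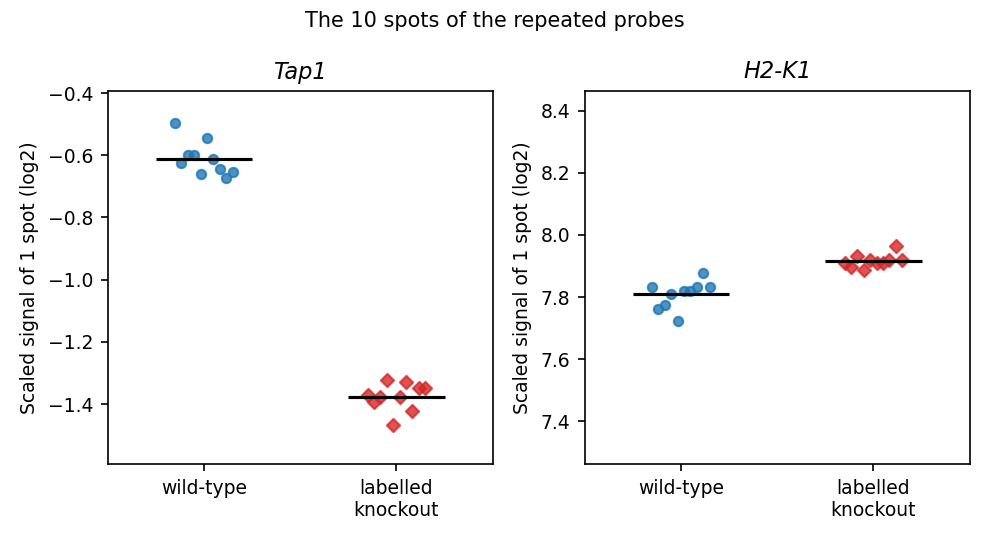
Scaled log2 signal of each of the 10 spots of the Tap1 probe and of the H2-K1 probe on the wild-type array (circles) and the array labelled knockout (diamonds), with the mean as a bar; both panels span the same number of log2 units. The Tap1 spots form separate groups, while the H2-K1 groups nearly touch.

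Tap1 was also the only member set apart from its neighbour in the order of differences. From Tap2 down through Tapbp, Psmb9, Psmb8, B2m, H2-K1, Psmb10 and H2-D1 to Nlrc5, the 8 gaps between neighbours were each smaller than their error. Sorting by value makes gaps between neighbours small. Members further apart in the order, such as Tap2 (0.52) and Nlrc5 (-0.19), can differ beyond that error. The gap from Nlrc5 to Tap1 was 0.58 ± 0.29. Against its partner Tap2, Tap1 was 1.29 ± 0.29 apart, and against Psmb9, the gene that shares the intergenic stretch printed above, 1.05 ± 0.29. These genes have no second probe, so choosing probes or rescaling a whole array cannot change these gaps. Under the settings that can (quantile, loess, normexp and the authors' deposited table) they ran from 1.21 to 1.44 and from 0.96 to 1.33.

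The Tap1 probe was dim, with a scaled log2 signal below 0 on both arrays. The 1470 other genes of like signal (within 0.5 on the log2 scale) had a median difference of -0.01 and a 5th percentile of -0.78, close to the value of Tap1, and 9.93% of them were at least 1.5-fold lower. Tap1 has no second probe here. Where a gene did have probes at least 8-fold apart in signal, the dimmer probe had the lower difference in 920 of 1218 genes, and its median difference was -0.38 against 0.02 for the brighter probe. Only probes well above background on both arrays entered, and the lowest such signal was 24.6 for wild-type and 9.76 on the other array. This filter favours lower differences among the dimmest probes, while Tap1, at 356 and 200, lay above both floors. The part of its low signal in the value of Tap1 was not tested.

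Other genes that load or trim class I peptides were split. Each of the 12 genes in that list was measured on both arrays, with 4 higher, 8 lower and a median of -0.12. Past 2-fold were 0 of them, where 7.59% of all genes were. Canx, a chaperone that binds new heavy chains, gave 7120 and 4320, a difference of -0.66 ± 0.20. Thop1, a peptidase of the cytosol, was dim at 31.7 and 18.7, with a difference of -0.70 ± 0.34. With normexp Thop1 was at -1.22, past 2-fold, and Canx at -0.30. The median of this list turned to 0.06 when the arrays were centred on their medians, a setting that moved the median of all genes to 0.19.

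The immunoproteasome subunits differed little between the arrays. In immune cells, or after interferon, they take the places of the constitutive catalytic subunits: Psmb8 replaces Psmb5, Psmb9 replaces Psmb6 and Psmb10 replaces Psmb7. Psmb9 gave 5090 and 5920, a difference of 0.28 ± 0.20, and Psmb8 gave 5520 and 6040, a difference of 0.19 ± 0.20. Psmb10 gave 12300 and 11800, which after scaling was a difference of 0.01 ± 0.20. Psmb9 was thus just beyond its scanner error and the others were within it.

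Set against the subunits they replace, Psmb8 and Psmb9 did not stand apart. Psmb5 had a difference of 0.20 ± 0.20, so Psmb8 minus Psmb5 was 0.00 ± 0.29. Psmb6 had one of 0.14 ± 0.20, and Psmb9 minus Psmb6 was 0.14 ± 0.29. Psmb7 was lower on the array labelled knockout, at 674 and 412, a difference of -0.65 ± 0.20, so Psmb10 minus Psmb7 was 0.65 ± 0.29. That last gap ran from 0.60 to 0.81 over quantile, loess, normexp and the authors' deposited table, the settings that can move it.

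The other core subunits, activators and assembly factors listed stayed within 2-fold by the probes that stand for them, while a second probe of the assembly factor Pomp gave -1.26. Psme1 and Psme2, which form the interferon-inducible activator PA28, had differences of 0.33 ± 0.20 and 0.14 ± 0.20, the second probe of Psme2 giving -0.23. Psme3, the nuclear relative of PA28, had a difference of -0.42 ± 0.20 and Psme4 one of -0.44 ± 0.21. With normexp Psme3 was at -0.14, and the dim second probe of Psme4 gave -0.94 ± 0.36. Of the 9 activators and assembly factors 5 were higher and 4 lower, 0 past 2-fold where 7.59% of all genes were, with a median of 0.07. Of the 11 other core subunits 5 were higher and 6 lower, 0 past 2-fold against the same share, with a median of -0.03. By the probes that stand for the genes, Psmb2 had the largest difference of these, -0.62 ± 0.20. Psmb3 followed with -0.23 ± 0.20, and normexp put the pair at -0.32 and 0.06. The second probe of Psma4 (481 and 313) gave -0.55 ± 0.20, against 0.13 ± 0.20 by its brighter probe.

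Nlrc5, the regulator of class I transcription, differed by less than its error. Its bright probe gave 13700 for wild-type and 11500 for the labelled knockout, a difference of -0.19 ± 0.20. The second probe gave 23.9 and 21.0, not well above background on the wild-type array, so no fold is given. Ciita, the related regulator of MHC class II genes, was lower on the array labelled knockout at 8310 and 4810, a difference of -0.72 ± 0.20. Normexp put Ciita at -0.39. B cells and antigen-presenting myeloid cells both express Ciita. Markers of B cells were lower on that array in 9 of 10 genes, and those of macrophages and dendritic cells higher in 9 of 11, and their part in the value of Ciita was not tested.

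The factors that work beside Nlrc5 or upstream of it were split too. The list of class I transcription and interferon gamma signalling held 21 genes, each measured on both arrays. In it 10 were higher and 11 lower, 0 passed 2-fold where 7.59% of all genes did, and the median was -0.04. Rfx5, part of the complex that holds Nlrc5 or Ciita at its promoters, was dim and had a difference of -0.37 ± 0.31, which was -1.09 with normexp, past 2-fold, and -0.16 in the authors' deposited table. Nfyb, a subunit of the factor that binds CCAAT, had one of -0.57 ± 0.20. Irf1, the interferon regulatory factor that binds class I promoters, had a difference of -0.13 ± 0.20 by its bright probe. With normexp Irf1 turned to 0.18. Ifng itself gave 108 and 142, 0.46 ± 0.22 apart, and -0.25 once normexp background correction was applied. Like that of the loading genes, medians of other lists around the members changed sign with the processing, the activators running from -0.23 to 0.25, the core subunits from -0.05 to 0.24, the transcription and signalling genes from -0.04 to 0.14, and the targets described next from -0.11 to 0.24.

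Interferon gamma targets outside antigen presentation gave no common direction. Of 15 genes 5 were higher and 10 lower, with a median of -0.04. By the probes that stand for the genes, only Ido1, an enzyme that breaks down tryptophan, passed 2-fold. It gave 129 and 47.9, a difference of -1.36 ± 0.22, where 3.63% of all genes were 2-fold lower. Cxcl9 was higher, at 0.69 ± 0.21 by its brighter probe and at 1.05 ± 0.21 by its second (278 and 549).

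**Figure D4:**
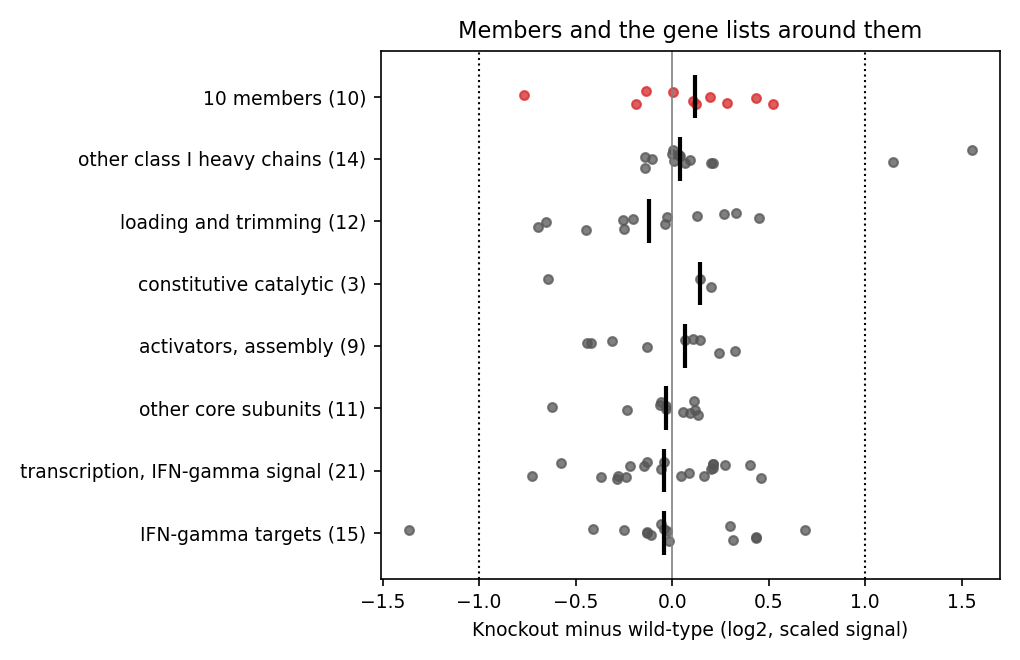
Knockout minus wild-type difference (log2) of each gene well above background on both arrays, for the 10 members and the 7 gene lists around them, with the number of genes in parentheses and the median as a bar. The medians lie between -0.12 and 0.14, and 3 genes lie outside the dotted 2-fold lines.

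Genes that mark other cell types gave signal on both arrays, although the sort for naive CD4+TCR+ cells before culture would remove B, NK and myeloid cells, and class I genes are active in those cells as well. All 9 matched T cell markers and all 10 B cell markers were well above background on both arrays. So were the 11 matched markers of macrophages and dendritic cells and the 11 of CD8 and NK cells. Of all 20651 genes, 12958 were, so passing this filter is common. B cell markers were lower on the array labelled knockout in 9 of 10 genes (median -0.22), with a summed scaled signal of 205 and 176. Those of macrophages and dendritic cells were higher in 9 of 11 (median 0.69, or 0.26 with normexp), their sums being 156 and 163. Siglech, by far the brightest of these, gave 74900 and 67500 (its second probe 0.51), so those sums mainly follow it. Csf1r was at 0.90 by its brightest probe and at -0.14 and -0.57 by its others. Markers of CD8 and NK cells were higher in 10 of 11 (median 0.40), their sums being 41.7 and 80.5. Klra1, an NK cell receptor gene and the brightest of that list, gave 8790 and 24700, and without it the sums were 25.5 and 33.0. T cell markers were split, 4 higher and 5 lower (median 0.00, sums 137 and 137), and their median was -0.34 with the mean over probes, -0.55 with the dimmest measured probe and 0.25 with normexp. The 3 T cell markers past 1.5-fold were all lower: Cd3e at -1.13, Cd247 at -0.78 and Cd3g at -0.71. The highest were Lck at 0.23 and Cd3d at 0.22. Of 9 matched markers of mast cells, basophils and neutrophils 8 were above background, 6 higher and 2 lower (median 0.32), and of 8 matched red cell, endothelial and stromal markers 6, with 3 each way (median 0.20, or -0.13 with no filter on dim probes); Ms4a2 and Hbb-bs were among those not well above background on either array. The summed scaled signal of the 10 class I members was 477 and 509, most of it from H2-K1 and B2m, whose differences were within their scanner error. Signals of different probes are not levels to set against each other, so each sum mainly follows its brightest probes. The part of these cells in the class I values was not tested.

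The members kept their values under most other ways of processing. Every member had the same sign under all 10 alternatives except H2-K1 (9 of 10), H2-D1 (8), Psmb10 (7) and Nlrc5 (9), whose differences were near 0. For members with no second probe, the alternatives that choose or average probes cannot change the value. Dropping the filter on dim probes cannot change any member, as all 10 passed it. No member probe had an outlier spot, so keeping such spots only rescaled the arrays. Tap1 ran from -0.77 to -0.58 and Tap2 from 0.50 to 0.72. In the authors' deposited table, a log2 table of the same arrays, Tap1 was 8.42 for wild-type and 7.72 for the other array, and the table departed from the scanner value of a member's difference by at most 0.07 for the probes that stand for the genes. The departure came with normexp, which starts from the median pixel of a spot: it moved the median of the members from 0.12 to 0.42, with B2m at 0.43, H2-K1 at 0.41, Psmb8 at 0.47 and Psmb9 at 0.62.

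**Figure D5:**
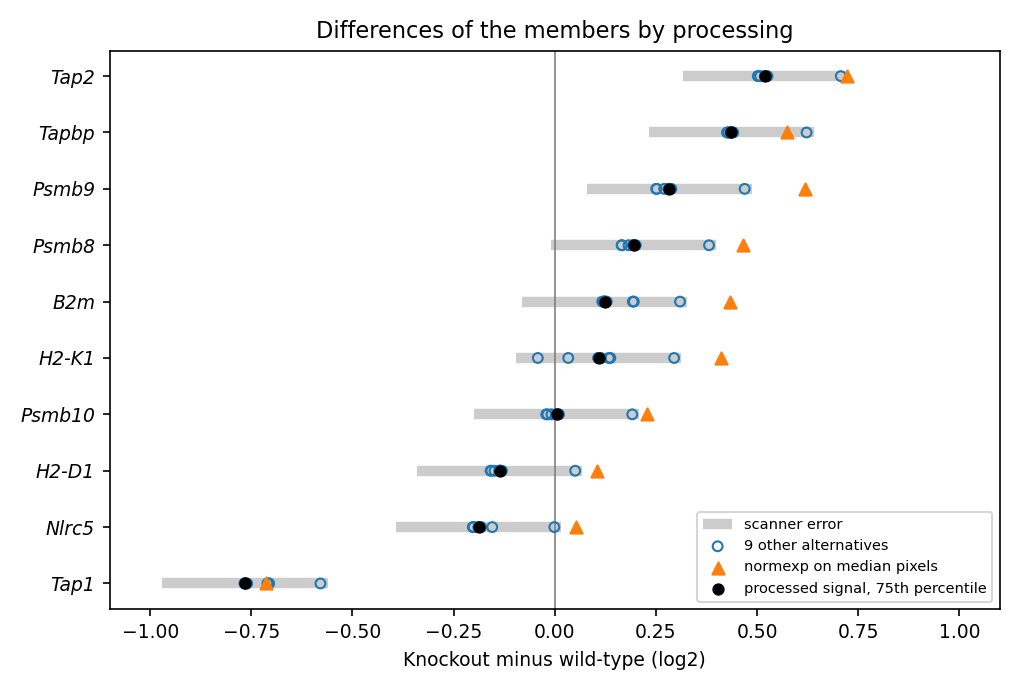
Knockout minus wild-type difference (log2) of each member under the processing used in the text (black), with its scanner error (grey bar), under normexp correction (triangles) and under the 9 other alternatives (open circles). Triangles lie right of the grey bar for 7 members, and Tap1 stays below 0 throughout.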

How the data were processed

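Each RNA sample was hybridised to a 1-colour (Cy3) mouse array, per the labels' protocols. The deposited spot intensity is, per the file headers, the background-subtracted output of Feature Extraction 11.0.1.1 (Agilent), and the headers give both arrays 1 scan. The authors' deposited table holds log2 values whose normalization no source used here states.

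Controls were dropped, as were outlier-flagged spots (228 for wild-type and 138 for the other array, among 43020 gene spots), and a probe's spots were averaged. No gene spot was saturated. Log2 signals were set to each array's 75th percentile over gene probes. Probes were named through unversioned RefSeq accessions of GRCm38.p6 (27220 of 39411 matched). The headers name another build, so no probe coordinates are printed. A gene was taken from its brightest probe above background on at least 1 array. Called means well above background on both arrays and 2-fold apart. No p-value was computed. The calling step was tested on simulated data. limma 3.58.1 (R 4.3.3), Python 3.11.15 and pandas 2.3.3 were used.

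Named genes were the members, their catalytic counterparts, PA28 and the interferon gamma genes listed, and from each other list up to 4 genes past 2-fold or the 2 largest differences. H2-M3 and H2-T23 were added as examples after their values were seen. Marker lists are given by counts. The single T cell markers, Siglech, Csf1r and Cxcl9 named above were picked after their values were seen. Some genes the rule names are not reported here. With 2 arrays no gene was sought for a like pattern. The members and lists were chosen with earlier results of these data known. The number of arrays limits the precision.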

Additional observations from a re-analysis of the deposited data

How the results depend on the processing

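The count of members past 2-fold was 0 under the main setting and the 10 alternatives, and 1 (Tap1) at 1.5-fold. The median difference of the members moved from 0.12 to 0.42 with normexp, and otherwise ran from 0.06 to 0.30. H2-Q10 turned to -0.32 when its dimmest measured probe was used. The causes were not tested. Other scalings changed the split of calls over all genes: 52.1% of calls were higher under the main setting, 73.3% after centring on the median (801 higher, 292 lower) and 63.8% with quantile normalization, and with normexp it was 14.9% (206 higher, 1179 lower, against 512 and 471). With no filter on dim probes 1100 genes were higher and 4291 lower. The scanner error was 0.34 for Thop1 and 0.31 for Rfx5, both dim, against 0.20 at the median. No paired analysis was possible because each genotype has 1 array.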

Other observations

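Probes of the same gene did not always give the same difference. Among 2902 genes with several probes well above background on both arrays, the dimmest probe had a lower knockout minus wild-type difference than the brightest in 1884 (64.9%), with a median gap of -0.14 on the log2 scale, and in 75.5% where the signals were at least 8-fold apart. Pomp, the assembly factor that joins immunoproteasomes, was such a gene, chosen after its values were seen: its bright probe gave 13800 on each array and its dim probe 120 and 47.9, differences of 0.07 and -1.26. Over all genes the median difference was -0.54 among the 593 with a scaled log2 signal between -6 and -4. It was 0.05 among the 3302 between 0 and 2. The background filter had unequal floors, a lowest passing signal of 24.6 for wild-type against 9.76 for the labelled knockout. Near these floors a gene passes more easily when its wild-type signal is the higher. The -0.54 therefore cannot be told apart from an effect of the filter, which also favours lower differences among the dimmest of the paired probes.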
